A study of Mus musculus with 14 samples.

Results

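The solute carriers (SLC) are described here in 11 mouse cell lines, each set on spotted two-colour arrays against a common pool of mouse reference RNA. The members were all probes whose single gene symbol in the platform's probe table begins with Slc and a digit. They numbered 133 probes of 127 genes, among 7680 probes on the array, of which 6835 had 1 gene symbol. Each member was put in a substrate class from its family and textbook knowledge. Amino acid, peptide and neurotransmitter carriers gave 35 probes, carboxylate and organic ion carriers 23, inorganic ion carriers 23, and sugar and polyol carriers 14. There were 11 probes for metals, 10 for vitamins, choline and nucleosides, 7 for mitochondrial carriers, 7 for nucleotide sugars and acetyl-CoA, and 3 for adaptor proteins and others that carry the prefix without being transporters.

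The lines were macrophage, T-cell lymphoma, myeloma, fibroblast, embryo fibroblast, myoblast, mammary tumor, liver, kidney, skin and testis. There were 14 arrays, 2 each for mammary tumor, fibroblast and myeloma and 1 for each of the other 8 lines. Total RNA of the line was labelled with Cy5 and the Stratagene mouse reference with Cy3 on every array, with no exchange of dyes, and the reference on mammary tumor array 1 carried 3 further letters in its label. The labels give no strain, sex, treatment, culture conditions or names of the lines. The titles say cell line where a short annotation says primary tissue, and nothing says that paired arrays were separate cultures. The p-values therefore reflect differences between arrays, and these may be technical. All values are log2 ratios of line over pool. A transcript made by only 1 of 11 lines pooled in equal parts would reach 3.46.

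Solute carriers are membrane proteins that move small molecules across the plasma membrane and the membranes of organelles, by facilitated diffusion or coupled to ions or to a counter-substrate. Families share a numbered prefix and often a substrate type. Which of them a cell makes sets its uptake of glucose, amino acids, nucleosides and metals and its release of products such as lactate. Macrophages are known for metal carriers of the phagosome, proliferating lymphocytes for glucose uptake, and antibody-secreting cells for heavy use of the secretory pathway.

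Known markers of the labelled cell types followed the labels in part. In the macrophage line 4 of 5 measured macrophage markers were highest of all lines, as were 5 of 5 T cell markers in the T-cell lymphoma line, 6 of 6 B and plasma cell markers in the myeloma line and 6 of 6 muscle markers in the myoblast line. Of the marker lists of the other lines, 1 of 4 fibroblast, 2 of 6 kidney, 1 of 6 testis, 1 of 4 skin, 0 of 5 liver and 0 of 6 mammary and epithelial markers were highest in the line so named. Alb was 0.33 and Apoa1 -0.93 in the liver line, and Krt8 was -3.01 in the mammary tumor line. Those lines are therefore called by their labels only, and in RNA of whole cultures fewer cells of a type and less RNA per cell cannot be told apart. The median log2 ratio was -0.51 on the embryo fibroblast array and -0.40 on the kidney array, against -0.15 to 0.13 on the other arrays. The arrays of a pair correlated over SLC probes at r = 0.677 for mammary tumor, 0.603 for myeloma and 0.350 for fibroblast. The 88 pairs of arrays of different lines averaged 0.228 and lay between -0.336 and 0.631. Some arrays of different lines thus correlated more closely than the myeloma pair or the fibroblast pair.

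The promoters of 3 genes are shown because their genes, Slc37a2, Slc16a3 and Slc11a1, had the widest ranges over the lines among tested SLC probes. Each is the 250 bases before the annotated start, read on the gene's strand from RefSeq, build GRCm38.p6, which held promoters for 103 of the 127 genes. Capitals mark ACGTG, the core of the hypoxia response element, and GAGGAA, the core of sites bound by the macrophage and B cell factor PU.1. Both strands were searched, so TTCCTC is GAGGAA read on the other strand, and the searched motifs do not overlap here.
Slc37a2: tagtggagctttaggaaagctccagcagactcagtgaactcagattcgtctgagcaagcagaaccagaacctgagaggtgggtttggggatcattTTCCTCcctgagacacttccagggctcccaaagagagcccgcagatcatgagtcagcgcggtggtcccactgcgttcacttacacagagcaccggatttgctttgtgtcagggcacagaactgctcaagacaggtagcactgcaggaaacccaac
Slc16a3: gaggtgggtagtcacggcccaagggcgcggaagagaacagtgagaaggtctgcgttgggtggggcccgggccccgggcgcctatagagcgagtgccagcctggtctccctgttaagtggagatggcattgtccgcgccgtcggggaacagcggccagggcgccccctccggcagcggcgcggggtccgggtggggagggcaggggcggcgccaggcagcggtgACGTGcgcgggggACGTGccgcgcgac
Slc11a1: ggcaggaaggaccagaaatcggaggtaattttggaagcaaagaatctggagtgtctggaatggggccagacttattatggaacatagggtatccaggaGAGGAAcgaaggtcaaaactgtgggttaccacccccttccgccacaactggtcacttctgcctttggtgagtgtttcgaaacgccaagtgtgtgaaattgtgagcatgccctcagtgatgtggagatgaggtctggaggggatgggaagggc
The Slc37a2 stretch lies on the minus strand at chr9:37255739-37255988 and the Slc16a3 stretch on the plus strand at chr11:120948817-120949066. The Slc11a1 stretch lies on the plus strand at chr1:74374953-74375202. Slc37a2 and Slc11a1 had 1 GAGGAA match each, and Slc16a3 had 2 ACGTG matches. Over the upstream stretches of 27025 genes, 23.1% held GAGGAA and 16.6% held ACGTG. The matches are a description of these letters and were not tied to the measured ratios.

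Over the lines, SLC probes varied about as much as the other probes. Of the 133 probes, 129 had a value in all 11 lines and were among 7423 tested features. Each line was set against the mean of the other 10, all weighted alike, in 1 limma fit, and a probe was called at an adjusted p under 0.05. The 11 comparisons gave 26 calls, in 19 SLC probes. That is 1.83% of the SLC comparisons, against 1.89% over all tested features, and 14.7% of SLC probes were called in at least 1 line, against 14.8% of all features. The median range between the highest and the lowest line was 2.03 for SLC probes and 2.04 for all features. In every line 34 of 129 SLC probes stayed within 1 of the pool on the log2 scale, against 24.9% of all features. The F-test over all lines found 10 SLC probes (7.75%), against 8.0% of all features. They were Slc2a3, Slc37a2, Slc16a3, Slc27a3, Slc7a2 probe 6010, Slc1a3 probe 937, Slc30a4, Slc12a2, Slc29a1 and Slc9a3r2.

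By line, the calls fell where the array-wide background had most of them, apart from the embryo fibroblast line. The T-cell lymphoma line had 6 SLC calls (4.65%, against a background of 4.58% of all features), and 5 of them were higher (3.88% against 2.22%). The macrophage line had 5 (3.88% against 4.07%), of which 4 were higher (3.1% against 1.94%). The myeloma line had 7 (5.43% against 6.7%), of which 6 were lower (4.65% against 3.41%). In the embryo fibroblast line 7 SLC probes were called, all of them lower, which is 5.43% against a background of 2.21% for both directions and 1.79% for lower values. On that array the whole distribution was low, and with each array centred on its median 3 of its SLC probes were called. The share of all features called on centred arrays is not given here, so that count has no background beside it. The differences of the 7 probes from the other lines lay between -3.58 and -2.06 as deposited and between -3.14 and -1.63 on centred arrays. The part of the array's low level in these calls was not tested. The fibroblast line had 1 call against a background of 1.23%. The limma fit called 0 SLC probes in the mammary tumor line (background 0.862%), the myoblast line (0.795%), the testis line (0.35%), the liver and kidney lines (0.0135% each) and the skin line (0.0%). At an unadjusted p under 0.05 the mammary tumor line had 13 SLC probes (10.1%, against 14.5% of all features), the myoblast line 14 (10.9% against 14.5%), the testis line 12 (9.3% against 11.9%), the liver line 14 (10.9% against 8.19%), the kidney line 19 (14.7% against 17.4%) and the skin line 13 (10.1% against 8.11%). Where replicate numbers were taken as a block (lines with 1 array were taken as number 1), there were 78 SLC calls over all lines, which is 5.5% of comparisons, against 6.27% of all features, and 28 by the F-test (21.7% against 23.5%). The 26 calls described here were all among the 78. The titles do not say that equal numbers mark arrays treated together, so p-values with the block rest on that assumption. The assumption was drawn from the same values that the block was fitted to. Block p-values given below for probes not called without it are therefore not counted as calls, and the other settings are not given for those probes. In that block fit the T-cell lymphoma line had 12 SLC calls (background 12.9%), the embryo fibroblast line 21 (12.6%), the macrophage line 12 (9.38%) and the myeloma line 15 (15.4%). The block also gave calls in lines that had 0 without it: 6 for myoblast (background 6.2%), 5 for kidney (4.67%), 4 for mammary tumor (3.22%), 1 for liver (0.377%) and 1 for skin (0.0943%). The fibroblast line kept 1 (2.6%) and the testis line 0 (1.47%).

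**Figure D1:**
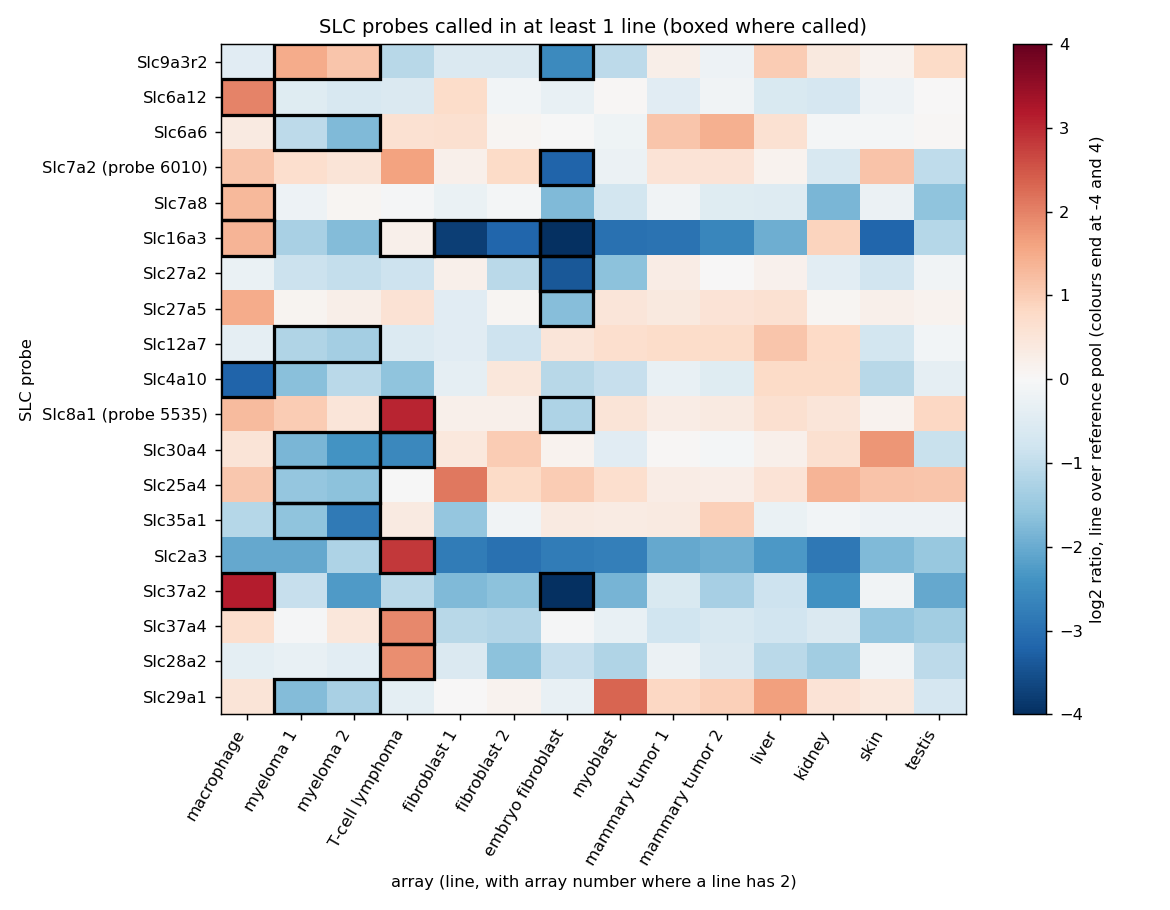
Log2 ratios of line over pool for the 19 SLC probes called in at least 1 line (rows, by substrate class) on the 14 arrays (columns), with called lines boxed. Slc2a3 is red on the T-cell lymphoma array alone, Slc37a2 on the macrophage array alone, and the myeloma boxes are mostly blue on both arrays.

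By substrate class, the T-cell lymphoma line had the highest median ratio for 4 of 8 transporter classes. Its median over genes was 0.43 for amino acid, peptide and neurotransmitter carriers (30 genes), 0.30 for sugar and polyol carriers (14 genes), 0.27 for vitamin, choline and nucleoside carriers (10 genes) and 0.14 for carboxylate and organic ion carriers (23 genes), where the skin line had the same rounded value. The skin line was highest for metals at 0.31 (11 genes) and for nucleotide sugars and acetyl-CoA at 0.45 (7 genes). The macrophage line was highest for mitochondrial carriers at 0.68 (7 genes), and the mammary tumor line for inorganic ions at 0.32 (22 genes). That value is for 2 arrays averaged per gene. Taken singly, the mammary tumor arrays had inorganic ion medians of 0.19 and 0.24, and the macrophage line, with 1 array, followed at 0.19. These medians have no test. The leading line was close to the next in several classes, since the skin line followed at 0.39 for amino acids and the liver line at 0.56 for mitochondrial carriers. The lead of the T-cell lymphoma line for sugars was the only one kept under every setting run. With each array centred on its median, the leading line became kidney for carboxylates, macrophage for metals and T-cell lymphoma for nucleotide sugars. The skin array had the highest median over all genes, 0.13. With quantile normalization it became skin for amino acids, kidney for carboxylates and liver for mitochondrial carriers. Without mammary tumor array 2 it became mammary tumor for carboxylates, and over features present on all 14 arrays it became skin for amino acids. Of the amino acid class, that setting leaves out the genes Slc43a3, known as a nucleobase carrier but classed by its family, and Slc6a20b. Both had their highest value in the T-cell lymphoma line, 1.40 and 0.79. With the median of 20 neighbouring probes subtracted, the leading line became myoblast for amino acids and for vitamins, kidney for carboxylates, macrophage for metals, liver for mitochondrial carriers and embryo fibroblast for inorganic ions and for nucleotide sugars.

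**Figure D2:**
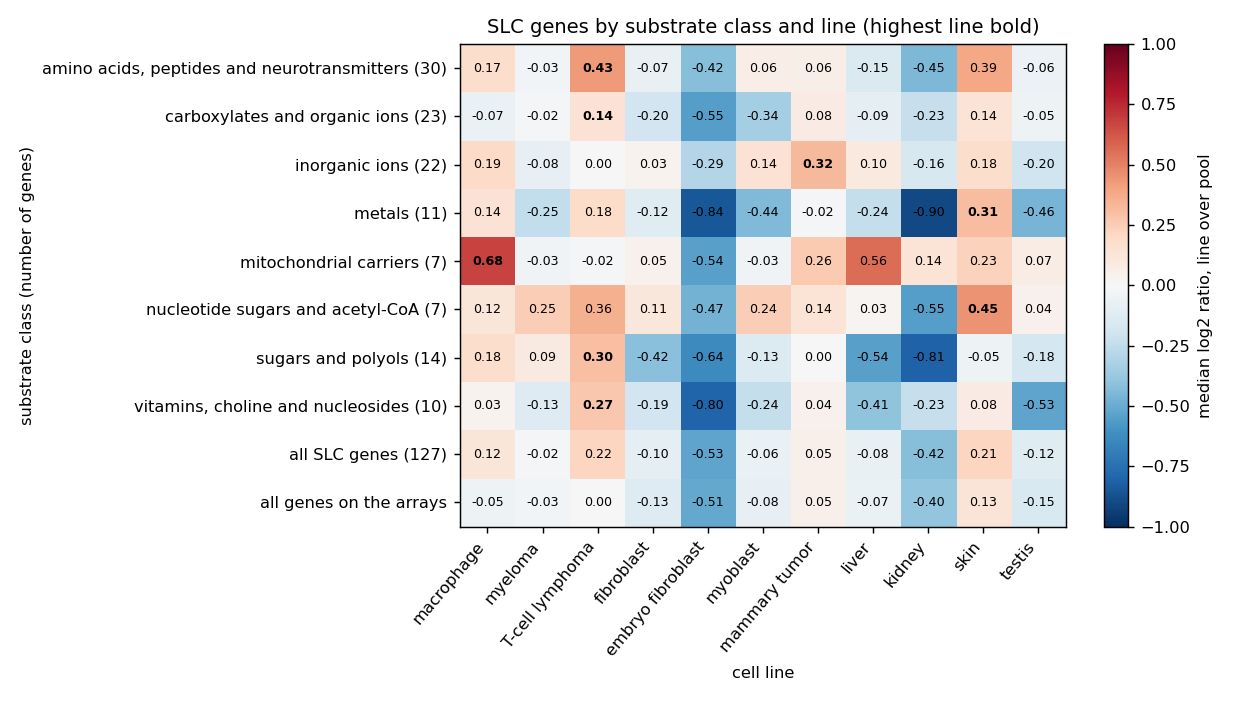
Median log2 ratio over the genes of each substrate class (rows, with the number of genes) in each line (columns), with the same over all SLC genes and all genes on the arrays in the last rows. The T-cell lymphoma column holds the highest value for 4 classes, and the embryo fibroblast and kidney columns are low for SLC genes (-0.53 and -0.42) and for all genes (-0.51 and -0.40) alike.

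Counted by probe, 34 of 129 SLC probes (26.4%) were highest in the T-cell lymphoma line, against 20.4% of all features. The skin line was highest for 21 (16.3% against 10.5%), the macrophage line for 18 of 129 (against 11.6%) and the kidney line for 14 (10.9% against 6.9%). The myoblast line was highest for 13 (10.1% against 11%), the myeloma line for 8 (6.2% against 9.54%), the mammary tumor line for 7 (5.43% against 6.71%), the fibroblast line for 6 (4.65% for both) and the liver line for 5 (3.88% against 6.72%). The testis line was highest for 3 (2.33% against 7.76%) and the embryo fibroblast line for 0 (0.0% against 4.2%). These shares are a description with no test.

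**Figure D3:**
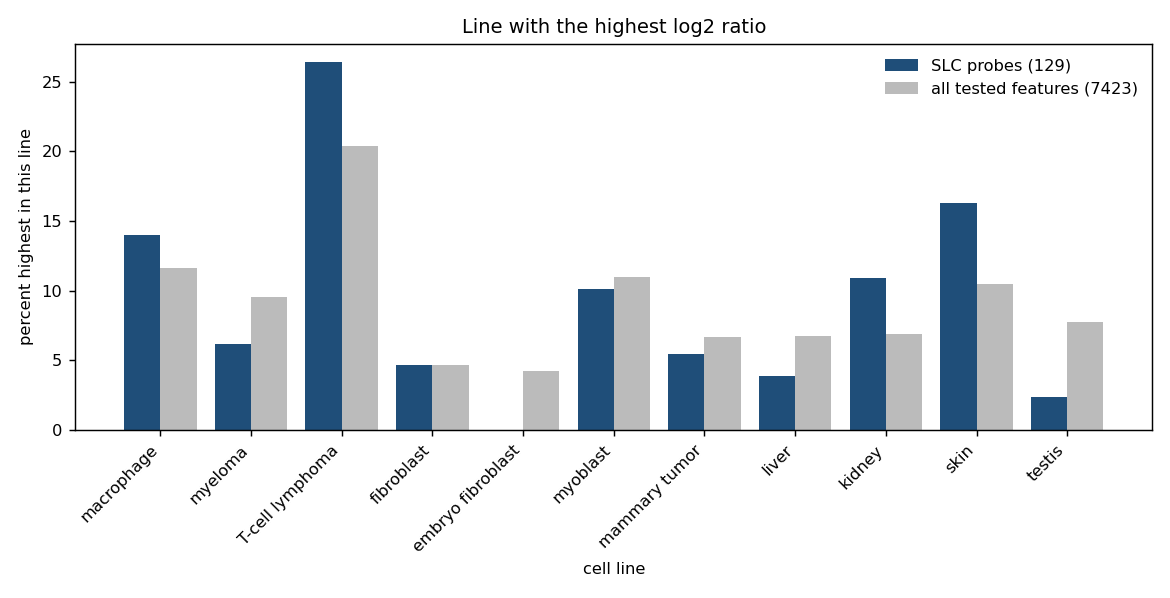
Percent of the 129 tested SLC probes (blue) and of the 7423 tested features (grey) whose highest log2 ratio was in each line. The T-cell lymphoma bars are the tallest for both, and no SLC bar stands over the embryo fibroblast line.

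Among sugar carriers, Slc2a3 marked the T-cell lymphoma line and Slc37a2 the macrophage line. Slc2a3 encodes GLUT3, a glucose transporter of high affinity. It was 2.82 in the T-cell lymphoma line, while the other 10 lines lay between -2.89 (fibroblast) and -1.52 (testis) with a median of -2.17, so no other line came near. The difference from their mean was 5.08 ± 0.40 (SE, limma adjusted p = 0.0114), and the call held in 14 of 14 alternative settings. The widely made glucose transporter gene Slc2a1 (GLUT1) ranged only from -0.77 in the kidney line to 0.50 in the myoblast line, and Slc2a4, the insulin-responsive GLUT4, from -0.996 to 0.47 in the same lines. Neither was called in any line.

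Slc37a2 encodes a sugar-phosphate exchanger of the endoplasmic reticulum. It was 3.13 in the macrophage line, and the others lay between -4.07 (embryo fibroblast) and -0.15 (skin) with a median of -1.64, a range that does not reach the macrophage value. The difference was 4.80 ± 0.54 (limma adjusted p = 0.0104), called in 14 of 14 settings. At the other end, the embryo fibroblast value of -4.07 was 3.12 below the mean of the other lines (limma adjusted p = 0.0438), a call that centring the arrays ended, as did 4 other settings. Slc37a4, the glucose-6-phosphate translocase of the same membrane, was 1.92 in the T-cell lymphoma line, against a range of -1.54 (skin) to 0.66 (macrophage) in the others. That difference was 2.47 ± 0.36 (limma adjusted p = 0.0206), and quantile normalization or leaving out either mammary tumor array ended the call.

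Slc37a4 was also the 1 SLC probe called between the 3 blood-cell lines and the other 8 lines, tested with the line as replicate. Its mean was 0.92 in the macrophage, myeloma and T-cell lymphoma lines and -0.81 in the other lines, a difference of 1.73 ± 0.41 (limma adjusted p = 0.0376). That is 0.775% of the SLC probes, against 3.22% of all features in either direction and 0.997% that were higher. With quantile normalization 0 SLC probes were called in this comparison, and without myeloma array 2 there were 5. The shares of all features called under these settings are not given here.

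Among carboxylate and organic ion carriers, Slc16a3 divided the lines most widely. It encodes MCT4, which exports lactate from glycolytic cells. The macrophage line had 1.37, above the kidney line at 0.91 and the T-cell lymphoma line at 0.20, and the embryo fibroblast line was lowest at -4.63. The fibroblast arrays had -3.76 and -3.18. The kidney value, though above the T-cell lymphoma value, was not called. The p-values were adjusted within each line, and in the kidney line 0.0135% of all features were called. Slc16a3 was called higher in the macrophage line by 3.43 ± 0.40 (limma adjusted p = 0.0110, 14 of 14 settings) and also in the T-cell lymphoma line by 2.13 ± 0.40 (adjusted p = 0.0355, 7 of 14). It was called lower in the embryo fibroblast line, with a difference of -3.18 ± 0.40 (limma adjusted p = 0.0192, 9 of 13) and in the fibroblast line, with -1.90 ± 0.29 (adjusted p = 0.0428, 7 of 14). The related lactate carrier gene Slc16a1 (MCT1) had 0.47 and 0.93 in the fibroblast line and lay between -0.66 and 0.39 in the others, with no call.

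The fatty acid carrier and acyl-CoA synthetase family Slc27 had its extremes in skin and embryo fibroblast lines. Slc27a3 was 3.75 in the skin line, the highest line value of any tested SLC probe, while the others lay between -1.12 (embryo fibroblast) and 0.24 (liver). It passed the F-test over all lines (limma adjusted p = 0.0323), and its own comparison of the skin line gave 3.98 ± 0.36 with an adjusted p of 0.0825, short of the threshold, and 0.0291 with the replicate block. The skin line has 1 array and is alone in its run of image numbers, so line and run cannot be told apart. Slc27a2 was -3.39 in the embryo fibroblast line, against -1.64 (myoblast) to 0.16 (mammary tumor) in the others, and Slc27a5, a bile acid-CoA ligase of liver, was -1.71 there, against -0.20 (fibroblast) to 1.49 (macrophage). Both were called lower (limma adjusted p = 0.0435 each, 6 and 7 of 13 settings). Both calls were lost when the arrays were centred, where the differences were -2.45 and -1.68, against -2.89 and -2.12 as deposited. Slc14a2, a urea carrier, had the narrowest range of the class, from -0.71 to 0.22.

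**Figure D4:**
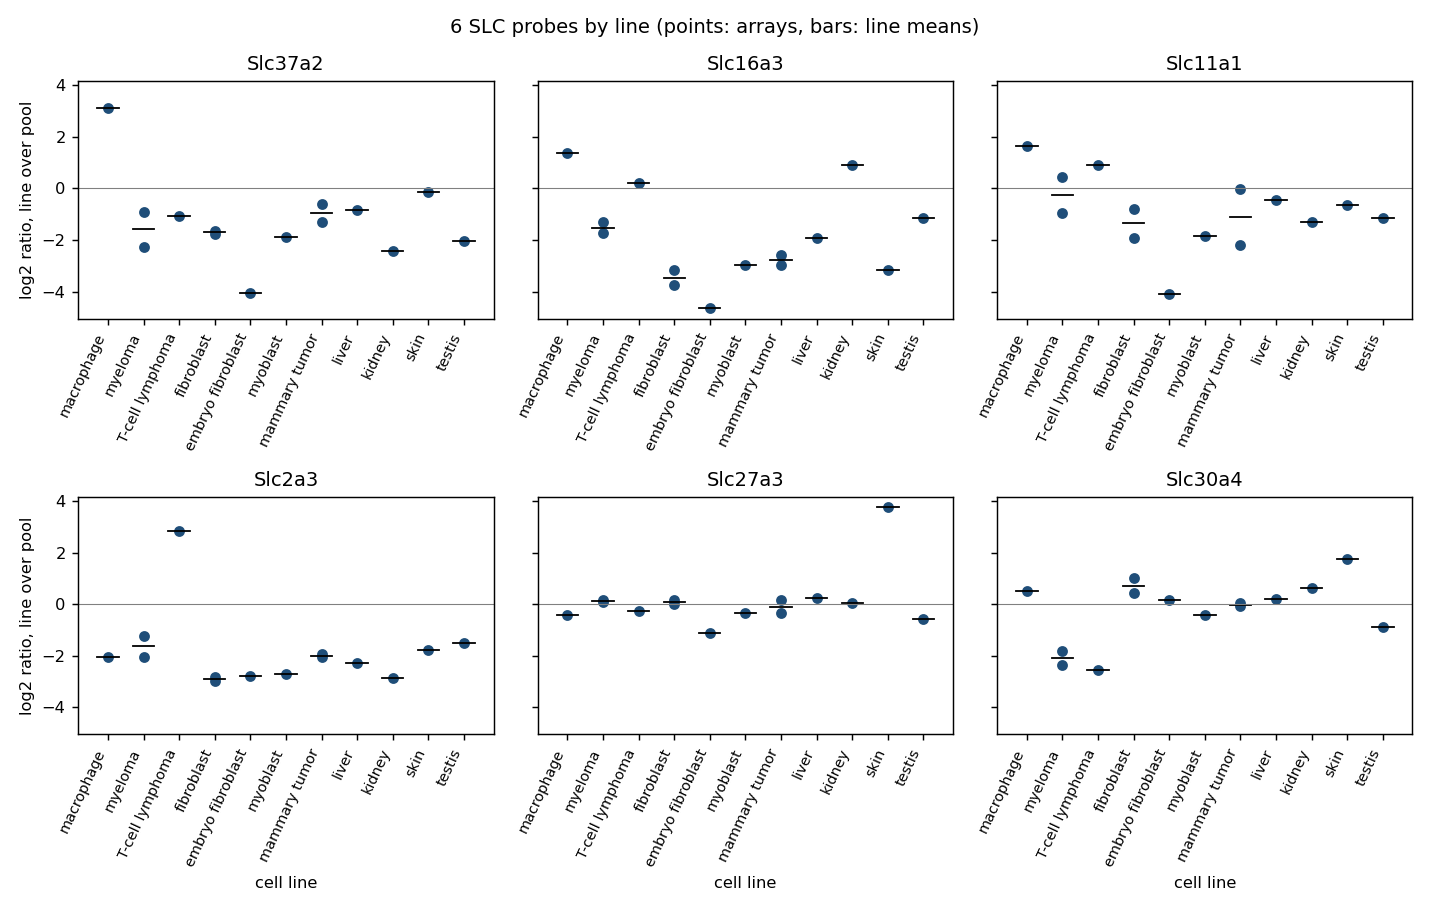
Log2 ratio of line over pool for 6 SLC probes in the 11 lines, with points for arrays and bars for line means. Slc37a2 and Slc2a3 each have a single line above 0, Slc27a3 is above 1 in the skin line alone, and Slc30a4 is low on the T-cell lymphoma array and both myeloma arrays.

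Among metal carriers, the zinc transporter gene Slc30a4 (ZnT4), which loads zinc into vesicles, was low in both lymphoid lines. The T-cell lymphoma line had -2.57 and the myeloma arrays -1.82 and -2.38. The other 9 lines lay between -0.88 (testis) and 1.77 (skin). The gap between the lymphoid lines and the rest was read from the values. That grouping was not tested, and such gaps were not counted over all features. Each line's own difference was -2.62 ± 0.40 for T-cell lymphoma (limma adjusted p = 0.0221, 11 of 14 settings) and -2.11 ± 0.30 for myeloma (adjusted p = 0.00968, 13 of 14). In the comparison of the blood-cell lines, which include macrophage at 0.52, with the other lines, Slc30a4 was not called. That difference was -1.65 ± 0.62 (limma adjusted p = 0.165). Slc30a1 (ZnT1), the zinc exporter of the plasma membrane, had its highest value in the T-cell lymphoma line at 1.37 and its lowest on the fibroblast arrays at -1.37 and -1.46. Neither difference passed the test (limma adjusted p = 0.0685 and 0.0624), although the T-cell lymphoma value did with the replicate block (adjusted p = 0.0314). Slc30a9 had the narrowest range of the metal carriers, from -0.20 to 0.73.

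No iron carrier was called in the fit without a replicate block. Slc11a1 (Nramp1), the metal carrier of the macrophage phagosome, was highest in the macrophage line at 1.65, followed by the T-cell lymphoma line at 0.91, and lowest in the embryo fibroblast line at -4.10. The macrophage difference was 2.78 ± 0.86 (limma adjusted p = 0.150, and 0.0116 with the replicate block), and the embryo fibroblast difference was -3.55 (adjusted p = 0.0879, and 0.00681 with the block). The arrays of a pair lay far apart for this probe, with 0.45 and -0.95 for myeloma and -0.03 and -2.20 for mammary tumor. Slc40a1 (ferroportin), the iron exporter, was 1.74 in the myoblast line and 1.38 in the macrophage line, against -2.04 in the skin line (limma adjusted p = 0.109 for the myoblast line, and 0.0351 with the block). Slc11a2 (DMT1), which imports iron, lay between -0.74 (embryo fibroblast) and 0.94 (myoblast).

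Of amino acid carriers, 4 of 32 tested probes (12.5%) were called, against 14.8% of all features called in at least 1 line. Slc7a2 encodes a carrier of arginine and lysine, and its probe 6010 was -3.21 in the embryo fibroblast line, against -1.02 (testis) to 1.60 (T-cell lymphoma) in the others. That was a difference of -3.58 ± 0.37 (limma adjusted p = 0.0155, 12 of 13 settings). The call was lost with the neighbour median subtracted, where probe 6010 of Slc7a2 had a difference of -2.29. Its second probe, 2390, was lowest in the same line at -1.77, with an adjusted p of 0.135, and 0.027 with the replicate block. The macrophage line was called higher for Slc7a8 (LAT2, a carrier of neutral amino acids) at 1.30, against -1.84 to -0.06 in the others. It was also called higher for Slc6a12 (a betaine and GABA carrier) at 1.98, against -0.68 to 0.31, with limma adjusted p = 0.0309 and 0.0376. These calls held in 8 and 9 of 14 settings, and both were lost with quantile normalization or without any of the mammary tumor or myeloma arrays. With the neighbour median subtracted the Slc7a8 difference was 1.29, against 2.04 as deposited (adjusted p = 0.120). The taurine carrier gene Slc6a6 was -1.05 and -1.77 on the myeloma arrays, against -0.16 (myoblast) to 1.27 (mammary tumor) in the others, a difference of -1.70 ± 0.31 (limma adjusted p = 0.0248). That call held in 10 of 14 settings and was lost without any of the mammary tumor or myeloma arrays.

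Several well known amino acid carriers were not called without the block. The glutamine carrier gene Slc1a5 (ASCT2) had -1.09 and -1.11 on the mammary tumor arrays, against -0.58 to 1.05 in the others (limma adjusted p = 0.0847, and 0.0491 with the replicate block). Slc7a11, the cystine importer, lay between 0.01 (testis) and 1.24 (macrophage). With probes of a gene averaged, Slc7a7, which exports cationic amino acids, had the widest range of the class, 4.07, between 0.03 in the macrophage line and -4.04 in the testis line, and neither end passed the test (limma adjusted p = 0.225 and 0.235). Slc38a3, a glutamine carrier, had the narrowest range of all tested SLC probes, 0.522. No probe of Slc3a2, Slc7a5, Slc31a1, Slc39a14 or Slc45a2, which the list of textbook carriers also holds, was among the 133, so these genes were not analysed here.

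For inorganic ions, the sodium/calcium exchanger gene Slc8a1 was highest in the T-cell lymphoma line by its probe 5535. That probe had 3.03 there, against -1.25 (embryo fibroblast) to 1.25 (macrophage) in the others. The difference was 2.64 ± 0.36 (limma adjusted p = 0.0170, 11 of 14 settings). With the median of neighbouring probes subtracted it was 1.29 (adjusted p = 0.122). Quantile normalization and leaving out mammary tumor array 2 also ended the call. The second Slc8a1 probe, 2120, had 0.26 in that line and did not follow the first (r = -0.10 over 14 array-centred arrays). The embryo fibroblast value of probe 5535 was also called lower (limma adjusted p = 0.0437, 6 of 13 settings).

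The macrophage line had a low value of Slc4a10, a sodium-coupled bicarbonate carrier, at -3.20, against -1.60 (T-cell lymphoma) to 0.77 (kidney) in the others. This was a difference of -2.67 ± 0.44 (limma adjusted p = 0.0257, 10 of 14 settings). Slc12a7, a potassium and chloride exporter, was called lower in the myeloma line with -1.21 and -1.37, against -0.75 (skin) to 1.12 (liver) in the others (-1.43 ± 0.26, limma adjusted p = 0.0229, 10 of 14 settings, lost without any of the mammary tumor or myeloma arrays). Slc12a2 (NKCC1), which brings sodium, potassium and chloride in, passed the F-test over all lines (limma adjusted p = 0.0328). It had -1.44 and -1.69 on the mammary tumor arrays, against 1.53 in the liver and myoblast lines and 1.47 in the embryo fibroblast line. The mammary tumor comparison had an adjusted p of 0.0536, and 0.0312 with the replicate block. The phosphate carrier genes Slc20a1 and Slc20a2 were not called without the replicate block, with 0.84 and 1.82 on the fibroblast arrays for Slc20a1 and -1.43 in the macrophage line for Slc20a2. Slc4a3, an anion exchanger, had the widest range of the class, with 0.90 for T-cell lymphoma and -3.47 for skin as its ends, and Slc4a1, the band 3 protein of red cells, the narrowest. The T-cell lymphoma value of Slc4a3 had a limma adjusted p of 0.120, and 0.0437 with the replicate block.

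The myeloma line was low for Slc25a4 (ANT1), which exchanges ADP and ATP across the inner mitochondrial membrane. Its arrays had -1.56 and -1.65, below every other line, since the others lay between -0.02 (T-cell lymphoma) and 1.43 (fibroblast). The difference was -2.47 ± 0.37 (limma adjusted p = 0.0123), and leaving out either myeloma array ended the call. Slc25a5 (ANT2), the isoform of dividing cells, had 0.23 in the myeloma line, and its extremes were -1.23 in the embryo fibroblast line and 0.79 in the skin line, with no call. Slc25a20, the carnitine and acylcarnitine carrier, had the narrowest range of the class, from -1.13 to 0.38.

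The Golgi carrier of CMP-sialic acid, Slc35a1, was also low in the myeloma line. It had -1.62 and -2.82 there, against -1.15 (macrophage) to 0.66 (mammary tumor) in the others. The difference of -2.12 ± 0.47 was just inside the threshold (limma adjusted p = 0.0481) and held in 7 of 14 settings. Slc35b1 had the narrowest range of the nucleotide sugar class, from 0.14 in the mammary tumor line to 1.13 in the fibroblast line.

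Among nucleoside carriers, Slc29a1 and Slc28a2 were called in different lines. Slc29a1 (ENT1) lets nucleosides equilibrate across the plasma membrane. It was -1.73 and -1.31 on the myeloma arrays, against -0.67 (testis) to 2.34 (myoblast) in the others, a difference of -2.03 ± 0.26 (limma adjusted p = 0.00705, 12 of 14 settings). The myoblast value just missed the threshold (limma adjusted p = 0.0509, and 0.0158 with the replicate block). Slc28a2 (CNT2), which takes up purine nucleosides with sodium, was 1.86 in the T-cell lymphoma line and below 0 in all others, between -1.38 (kidney) and -0.15 (skin). The difference was 2.67 ± 0.46 (limma adjusted p = 0.0289, 9 of 14 settings). The choline carrier gene Slc5a7 had the widest range of this class, from -3.81 in the liver line to 1.43 in the T-cell lymphoma line, and Slc46a2 the narrowest. The liver value had a limma adjusted p of 0.321, and 0.0415 with the replicate block.

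One called member is not a transporter. Slc9a3r2 (NHERF2), a scaffold with PDZ domains that binds sodium/proton exchangers, had 1.49 and 1.10 on the myeloma arrays, against -2.54 (embryo fibroblast) to 1.01 (liver) in the others (1.63 ± 0.27, limma adjusted p = 0.0169). That call was lost without mammary tumor array 2 or either myeloma array. Its embryo fibroblast value was called lower (limma adjusted p = 0.0246, 8 of 13 settings). Slc4a1ap, the other end of this small class, ranged from -0.71 to 0.61.

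Each of the 26 calls could be set against other lines within its own run of image numbers. The labels give the image numbers, and the runs were cut here at wide gaps between them. All 27 such differences, 2 of them for the fibroblast line, had the same direction as the call. These differences reuse the line values that made the calls and part of the same other lines. The shared direction was therefore largely fixed in advance, and an effect of the run was not tested by it. For Slc2a3 the T-cell lymphoma line was 5.64 above the 3 other lines of its run, for Slc37a2 the macrophage line 4.65 above 4 others, and for Slc16a3 the macrophage line 3.32 above 4 others.

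Probes with close numbers tended to have similar profiles, whatever their genes. The 109 pairs of SLC probes at most 3 numbers apart had a median r of 0.398 over the 14 array-centred arrays, with 13 pairs above 0.8. The 8226 pairs more than 100 numbers apart had a median of 0.00, with 35 above 0.8. The points share arrays. The labels do not say whether the numbers follow position on the slide, and the part of position in the results was not tested. The clearest stretch was probes 2136 to 2143, which include 2 probes of Slc1a3, the glial glutamate carrier GLAST. Those 2 correlated at r = 0.966 with each other and at 0.935 and 0.926 with Slc1a6, the next number, while the third Slc1a3 probe, 937, correlated with them at -0.42 and -0.47. Probe 937 was the Slc1a3 probe that passed the F-test, with 1.43 in the testis line and -1.15 and -1.73 on the fibroblast arrays. Slc11a1 (5995) and Slc37a2 (5996) are also neighbours, with r = 0.772. The calls of Slc37a2 and Slc16a3 in the macrophage line and of Slc2a3 in the T-cell lymphoma line stayed when the median of the 20 nearest other probes was subtracted, with differences of 3.99, 2.78 and 4.51. Of the 26 calls, 16 were called in that fit.

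**Figure D5:**
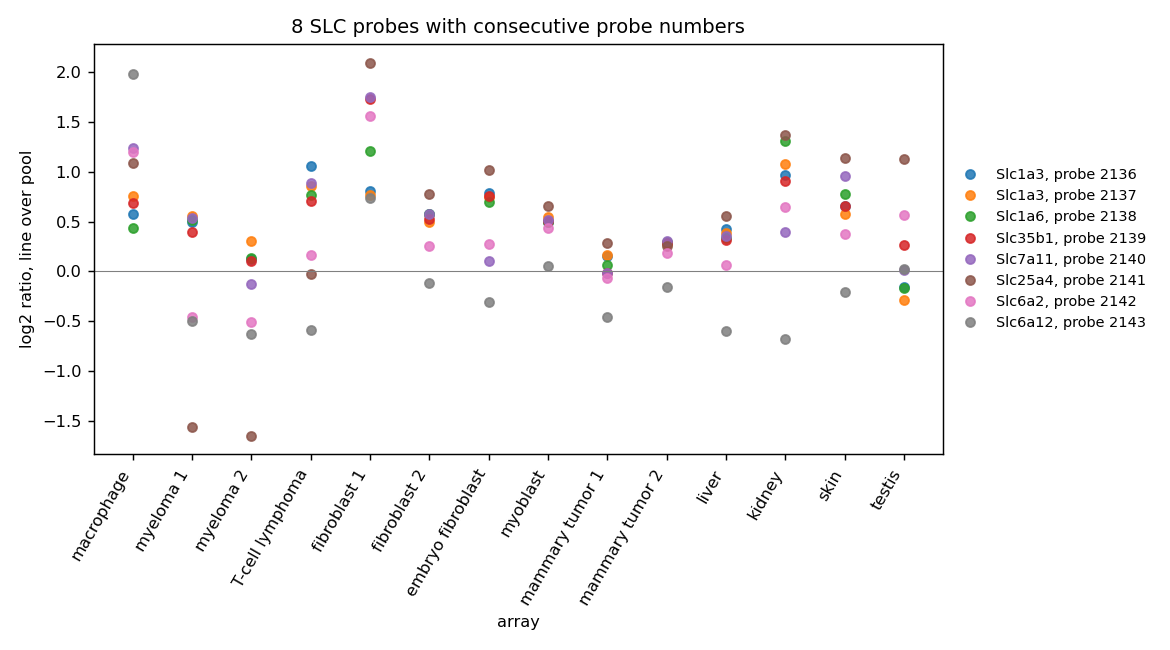
Log2 ratio of line over pool on the 14 arrays for 8 SLC probes with consecutive probe numbers, 2136 to 2143. The first 3 probes lie close together on most arrays, while Slc25a4 on the myeloma arrays and Slc6a12 on the macrophage array stand apart from the rest.

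Other genes with several probes gave mixed profiles. On the same centred arrays the 2 Slc7a2 probes correlated at r = 0.43 and the 2 Slc1a1 probes at 0.24 over 11 arrays, while the 2 Slc6a2 probes had -0.25. As deposited, the values were 0.60, 0.41 and -0.27. For these genes no single profile can be given.

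Genes of the pathways the carriers feed were counted in the same fit. Of 18 glycolysis probes 2 were called, Pfkp, a phosphofructokinase, higher in the macrophage line by 2.12 and, for T-cell lymphoma, by 2.40, and Eno3, the muscle enolase, lower in the T-cell lymphoma line with a difference of -2.31. Of 12 iron handling probes 3 were called, all higher. Cp (ceruloplasmin) was higher in the myeloma line by 4.10 and Steap3, an iron reductase, in the mammary tumor line by 2.32. Trf (transferrin) was higher in the T-cell lymphoma line by 2.85 for its probe 1658. That probe had 2.00 there, while the probes of Trf averaged had 0.53. Of 6 probes of the amino acid stress response 2 were called, Ddit3 and Atf4, both lower in the myeloma line, with differences of -2.68 and -1.87. The 1 metallothionein and zinc probe was not called. The first 3 lists had calls in 1.52%, 2.27% and 3.03% of their line comparisons, against 1.83% for SLC probes and 1.89% for all features.

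Other transporter families had calls in 0.727% of their line comparisons each, and their difference from the SLC probes was not tested. Of 25 probes of ABC transporters, which pump with ATP, Abcg1 and Abca3 were called, both higher in the myeloma line by 2.88 and 1.97. Of 25 tested probes of ion-pumping ATPases and their relatives, Atp6v1c1, a subunit of the lysosomal proton pump, was called higher in the macrophage line by 1.98, and Atp1b1, a subunit of the sodium pump, lower in the T-cell lymphoma line with a difference of -3.61.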

How the data were processed

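Each of the 14 arrays was used as deposited, in a value table of 7680 probes with 423 of 107520 cells empty. The deposited numbers are read here as log2 ratios of line over pool made by the authors, and how they were background-corrected, normalized or filtered is not given in the labels. Base and direction were inferred. With the lines in equal parts in the pool, the mean unlogged ratio of a probe would be 1, and the median of that mean was 1.003 for log2, 1.072 for natural logs, 1.867 for log10 and 1.2 for log2 with the opposite sign. Base 2 is thus only weakly parted from natural logs, and whether arrays were centred is unknown.

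The 80 Gapdh spots were averaged, leaving 7601 features, and the tests covered the 7423 that had a value in each of the 11 lines. The 4 SLC probes not tested were Slc43a3, Slc6a20b, Slc5a4b and Slc1a1 probe 7436. Symbols of all 133 SLC probes matched the RefSeq table of GRCm38.p6. Of all probes, 6835 had 1 gene symbol, 4 had several and 841 were unlisted. The fits used limma 3.58.1 in R 4.3.3 (lmFit, eBayes, two-sided, Benjamini-Hochberg within a line over all tested features), and figures matplotlib 3.10.9. The residual had 3 degrees of freedom, to which moderation added 3.75. Lines with 1 array were taken to vary as the 3 pairs did, and the number of arrays limits the precision. The fit was also run on simulated independent arrays with no effect of run, probe position or array level. Those settings are simpler than these data, and the simulation is not used here to judge the calls.

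The named members were those called, the widest and narrowest of each class, genes with several probes, those with the highest and lowest line values and a list of textbook carriers. Members, classes and lists were chosen with earlier results of these data known, and the class of Slc4a1ap was added after the probe table was seen. Alternatives were other normalizations, robust moderation, complete features, image run and replicate number as blocks, gene averages and each array of a pair left out. Subtracting the median of 20 neighbouring probes and leaving out the embryo fibroblast array were chosen after seeing the data. Replicate numbers come from the titles, where only array 2 of a pair carries one. The difference of array 1 and array 2 correlated between the paired lines at 0.536, 0.377 and 0.331. The numbers were therefore taken to pair the arrays, an assumption drawn from the same values that the block was fitted to. Runs of image numbers did not follow them. Both myeloma arrays were in run 4. Fibroblast arrays 1 and 2 were in runs 3 and 4, and those of mammary tumor in runs 1 and 2.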

Additional observations from a re-analysis of the deposited data

How the results depend on the processing

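No direction was reversed. Over the 26 calls and their 14 or 13 alternatives, 256 of 357 kept the call and 101 lost it, and 17, 19, 15 and 16 of the 26 were lost without mammary tumor array 1, mammary tumor array 2, myeloma array 1 and myeloma array 2. Leaving out an array of a pair gave 7 to 33 calls over all lines (7 without mammary tumor array 2, 33 without either fibroblast array), 0 to 13 by the F-test, 1 to 5 between blood-cell and other lines, 1 to 10 in the T-cell lymphoma line, 1 to 7 in the embryo fibroblast line, 2 to 5 in the macrophage line, 0 to 10 in the myeloma line, 0 to 1 in the mammary tumor line, 0 to 2 in the myoblast line and 0 in the fibroblast line. With quantile normalization there were 15 calls, 11 of them shared with the 26: 1 in the T-cell lymphoma line, 1 in embryo fibroblast, 2 in macrophage, 4 in mammary tumor, and 0 between blood-cell and other lines. Centred arrays gave 3 in embryo fibroblast and 1 in mammary tumor. The replicate block gave 78 calls, all 26 among them: 12 in T-cell lymphoma, 21 in embryo fibroblast, 12 in macrophage, 15 in myeloma, 6 in myoblast, 5 in kidney, 4 in mammary tumor, 1 in liver and 1 in skin, and 28 by the F-test. Image run as a random block (correlation 0.470) gave 3 in the fibroblast line and 16 by the F-test. With the neighbour median subtracted there were 3 in embryo fibroblast, 2 in mammary tumor, 3 in myoblast and 2 between blood-cell and other lines. Without the embryo fibroblast array there were 2 in the fibroblast line and 2 between blood-cell and other lines. Gene averages are not among the 14 or 13 alternatives of a call. They gave 24 calls over all lines, 5 in T-cell lymphoma and 6 in embryo fibroblast. Among these alternatives, shares of all features called are given above for the replicate block only. The other counts have no background beside them and cannot be read as results about the SLC probes. The cause of the changes between settings was not tested.

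Class medians of the line that was highest as deposited moved as follows. Amino acids gave 0.22 with quantile normalization, 0.28 over features on all 14 arrays and 0.0233 with the neighbour median subtracted. Carboxylates gave -0.044, metals -0.102 and vitamins -0.027 with the neighbour median subtracted. Inorganic ions gave 0.28 with centred arrays, 0.0946 with the neighbour median subtracted, and 0.19 to 0.32 when an array was left out. Mitochondrial carriers gave 0.50 and 0.21, and nucleotide sugars 0.31 and 0.023, with quantile normalization and with the neighbour median subtracted. Sugars gave 0.13 with quantile normalization. Averaging the probes of a gene was already part of these medians and was not run again.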

Other observations

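Slc43a3, known as a nucleobase carrier although its family carries neutral amino acids, had the lowest single value of any SLC probe, -7.12 on myeloma array 2. Myeloma array 1 held no value for it, and the macrophage and myoblast arrays were empty as well, so it was not tested. Its highest value was 1.40, in the T-cell lymphoma line.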
